A study of Drosophila melanogaster with 4 samples.

Results

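mir-252 is 1 of 219 miRNA genes in the authors' table of small RNAs from Drosophila Schneider 2 (S2) cells, and 3 of the table's 495 rows belong to it. These are all rows named for the mir-252 hairpin, on both arms and with every 5′ end listed. The gene was chosen by measured values of these same libraries, the abundance of its arms and the 5′ end of its 3p arm, so the values below describe it and carry no test. S2 cells are a line derived from Drosophila embryos. Each of the 4 groups held 1 library. Nbr(wt), NbrCTD and NbrCTD-GWp are cells with the Nibbler (Nbr) gene removed by CRISPR-Cas9, stably transfected with the construct of that name under the Act5C driver, and nbrKO is the knockout with no construct. What CTD and GWp stand for, and whether the knockout is 1 clone, is not said in the labels. The Nbr deletion is common to all 4 groups, and neither S2 cells with their own Nbr nor knockout cells with an empty construct are among them.

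MicroRNAs are cut from a hairpin precursor by Drosha and then by Dicer-1, and one strand, the guide, is kept in Argonaute. Bases 2 to 8 of the guide, the seed, choose the target mRNAs, so a 5′ end that moves by 1 base gives another seed. Nbr is a 3′-to-5′ exonuclease that shortens the 3′ ends of miRNAs bound to Argonaute. miR-252 is conserved among invertebrates, and in flies its 5p strand has been reported to act on mbt, a kinase gene of the PAK family, and on Abi, an actin regulator.

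The mir-252 hairpin lies on the minus strand of chromosome arm 3R. In the BDGP6 annotation it spans 3R:13464219-13464311, a length of 93 bases, inside an intron of the antisense RNA genes asRNA:CR17025 (its intron 1) and asRNA:CR46354 (its intron 3) on the same strand. The protein-coding gene side-IV, on the other strand, ends 34 bases away. The table puts the 5′ end of the 5p arm at position 9290018 of 3R, in a build that it does not name, and its arm names 2LHet and 2RHet are absent from BDGP6, so positions of the table and of the annotation were not joined. Distances between the arms can be compared. In the table the listed 3p ends start 45 bases from the 5p start in Nbr(wt), NbrCTD and nbrKO, and 44 bases from it in NbrCTD-GWp. In BDGP6 the annotated 3p strand starts 44 bases from the annotated 5p start.

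The 5′ letters of the 3 rows are shown because they carry the 5′ end shift. The table gives 7 letters for each row, written as DNA, and the first was T in 62.7% to 66.3% of the rows marked as the main arm, so the letters were read as bases 1 to 7. Capitals mark bases 2 to 7, the part of the seed that the table holds.
miR-252-5p, all 4 libraries: cTAAGTA
miR-252-3p, Nbr(wt), NbrCTD and nbrKO: cCTGCTG
miR-252-3p, NbrCTD-GWp: tCCTGCT
The 3p letters are the same run moved by 1 base, so the longer 3p end of NbrCTD-GWp has another seed. Among 391 other arms, miR-1002-5p and miR-1016-5p had the capitals of miR-252-5p, as in the 2L arm miR-1002-5p: tTAAGTA. Those of the shorter 3p end were found elsewhere only in miR-4973-3p, in NbrCTD alone and on less than 1 read, and no other arm had those of the longer end.

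The depth behind the deposited values was 32488012 reads in Nbr(wt), 26500155 in NbrCTD, 27312149 in NbrCTD-GWp and 24005045 in nbrKO. Rows of miRNAs held 54.7% to 65.0% of them. With 1 library a group no difference has a replicate check, and all intervals are at 95% and cover counting error of reads only. Whether PCR copies of 1 molecule count as separate reads is not given in the sources used here. If they do, the intervals are too narrow for molecules. Only RNA of 18 to 30 nt was sequenced, and mRNAs, of Nbr and of the constructs too, were not measured. Of the arms common in S2 cells, bantam-3p, miR-14-3p, miR-8-3p, miR-184-3p and miR-34-5p together made up 59.8% to 62.7% of miRNA reads at listed ends. The 13 markers of ovary, early embryo, neurons, muscle and larval or adult tissue all had reads in every library, and their summed level was 162 in Nbr(wt), 147 in NbrCTD, 132 in NbrCTD-GWp and 229 in nbrKO, in miRNA RPM. This unit is the RPM with the reads at the listed 5′ ends of the 283 miRNA arms given in all 4 libraries as the total. Levels of whole arms are set on the same total. Of the marker sum, the ovary arm miR-318-3p alone held 118, 98.1, 86.4 and 139 miRNA RPM in the same order of libraries. At least 100 reads were reached by 5, 2, 4 and 5 of the 13 markers. The marker sum was highest in nbrKO, where mir-252 was too, and its part in the values below was not tested. Fewer cells with the miRNA and less of it per cell cannot be told apart here.

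miR-252-5p was the guide of the hairpin, and it was lower with every construct than in nbrKO. Its listed end had 40875 reads in Nbr(wt), 29743 in NbrCTD, 13982 in NbrCTD-GWp and 57072 in nbrKO. As a level this was 2027 miRNA RPM (interval 2007 to 2047) in Nbr(wt), 2013 (1990 to 2036) in NbrCTD, 788 (775 to 801) in NbrCTD-GWp and 4353 (4317 to 4389) in nbrKO. In this unit nbrKO was highest, Nbr(wt) and NbrCTD overlapped, and NbrCTD-GWp was lowest, apart from all others. Among the 283 arms, miR-252-5p ranked 37 in Nbr(wt), 37 in NbrCTD and 46 in NbrCTD-GWp, against 26 in nbrKO. In the authors' own RPM, over all reads of the library, the levels were 1258, 1122, 512 and 2378 in the same order of libraries, with nbrKO last.

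**Figure D1:**
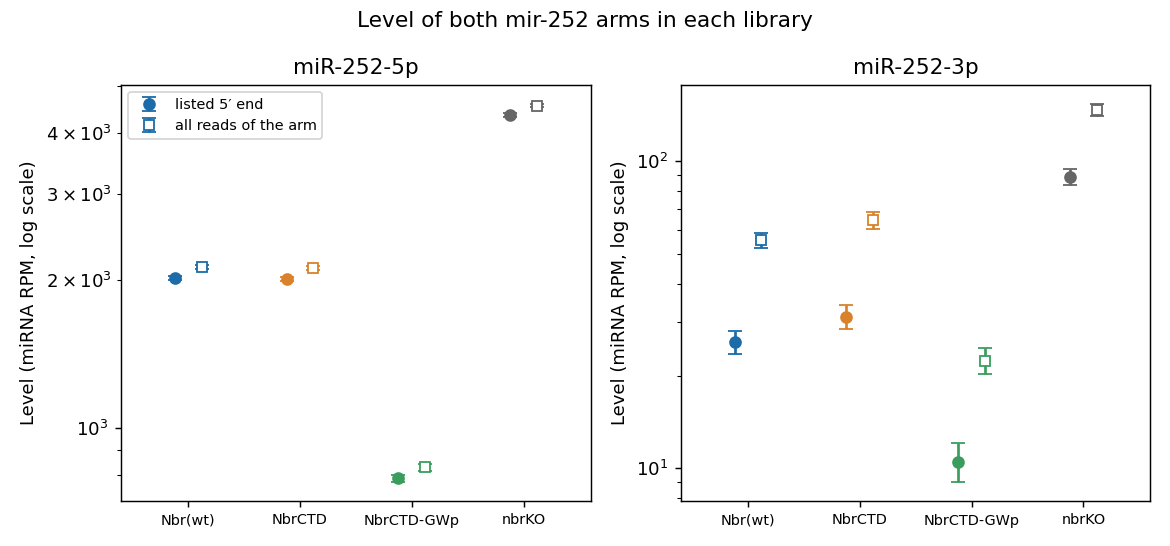
Level of each mir-252 arm (miRNA RPM, log axis) in the 4 libraries, with filled circles for the listed 5′ end, open squares for all reads of the arm, and bars for exact Poisson 95% intervals. For miR-252-5p, NbrCTD-GWp sits lowest at 788 miRNA RPM and nbrKO highest at 4353.

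On the log2(miRNA RPM + 1) scale the difference from nbrKO was -1.10 with Nbr(wt) (interval of the ratio -1.12 to -1.08), -1.11 with NbrCTD (-1.13 to -1.09) and -2.47 with NbrCTD-GWp (-2.49 to -2.44). An arm counted as lower when it was at least 2-fold lower and the Poisson intervals were apart. The rule was applied to 125 arms whose reads averaged at least 100 over the libraries. It found 26.4% of them lower and 6.4% higher for Nbr(wt), 16% and 8.8% for NbrCTD, and 17.6% and 8% for NbrCTD-GWp. The split depends on scaling: for Nbr(wt) it is 33 lower and 8 higher arms, and 19 and 15 with median-of-ratios size factors, and for NbrCTD-GWp 22 and 10, and 15 and 12 with the authors' RPM. The 3 differences share the 1 nbrKO library. The median log2 difference over the 125 arms was -0.38, -0.14 and -0.21 in the same order of constructs. From the lowest difference upwards, miR-252-5p ranked 24 for Nbr(wt), 16 for NbrCTD and 5 for NbrCTD-GWp. The call with Nbr(wt) lies near the 2-fold line and is lost with the authors' RPM (-0.92), median-of-ratios size factors (-0.77) and trimmed means (-0.74), while those with NbrCTD and NbrCTD-GWp are kept under all 3.

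miR-252-3p, the passenger strand, was far rarer and was also lower with every construct. Its listed end had 519 reads in Nbr(wt), 460 in NbrCTD, 186 in NbrCTD-GWp and 1167 in nbrKO. The table also gives the share of the arm's reads held by that end, and from it all reads of the arm numbered 1115, 951, 398 and 1932 in the same order. As levels of the whole arm these were 55.3 miRNA RPM (52.1 to 58.6) in Nbr(wt), 64.4 (60.3 to 68.6) in NbrCTD, 22.4 (20.3 to 24.7) in NbrCTD-GWp and 147 (141 to 154) in nbrKO. The order of libraries had nbrKO highest and NbrCTD-GWp lowest, as for the guide, while NbrCTD lay above Nbr(wt) with intervals apart.

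For all reads of miR-252-3p, the log2 difference from nbrKO was -1.40 with Nbr(wt) (-1.52 to -1.31), -1.18 with NbrCTD (-1.31 to -1.08) and -2.66 with NbrCTD-GWp (-2.88 to -2.56). For the listed ends alone it was -1.75 (-1.94 to -1.64), -1.49 (-1.67 to -1.36) and -2.97 (-3.32 to -2.86) in that order. The listed ends thus differed more than the whole arm did in each comparison, and with NbrCTD-GWp the listed end is another one than in nbrKO. All intervals of log2 differences given here are those of the plain ratio, without the added 1. For a rare arm they are therefore not centred on the printed difference.

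Between the construct libraries, which do not use nbrKO, NbrCTD-GWp stood apart in mir-252. Against NbrCTD, the log2 difference of miR-252-5p was -1.35 (-1.38 to -1.33) and that of miR-252-3p, over all its reads, -1.48 (-1.69 to -1.35). Against Nbr(wt), it was -1.36 (-1.39 to -1.34) and -1.27 (-1.47 to -1.14). These are the lowest values among the 125 arms in both comparisons, with the listed ends as with all reads. Only 4% of arms were at least 2-fold lower in NbrCTD-GWp than in NbrCTD, and 1.6% than in Nbr(wt). The 1.6% are 2 arms, both of mir-252, and with median-of-ratios size factors or trimmed means 4 arms are lower. Besides both mir-252 arms, those lower than in NbrCTD were miR-965-3p, miR-308-5p and miR-2497-3p, at -1.34, -1.11 and -1.01 on the same scale, 3 arms named after their values were seen. Over all 125 arms the median log2 difference was -0.10 against NbrCTD and 0.10 against Nbr(wt). For NbrCTD against Nbr(wt), the log2 difference of miR-252-5p was -0.01 (-0.03 to 0.01) in miRNA RPM. With the authors' RPM it was -0.16, with median-of-ratios size factors -0.25 and with trimmed means -0.31, all short of 2-fold. For all reads of miR-252-3p the difference between these libraries was 0.22 (0.09 to 0.35) in miRNA RPM, short of 2-fold. For its listed ends it was 0.27, against -0.02 with trimmed means. How NbrCTD and Nbr(wt) compare in mir-252 thus depends on the scaling. In this comparison 0.8% of arms were lower by the rule and 6.4% higher, that is 1 and 8, against 4 and 2 with trimmed means.

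**Figure D2:**
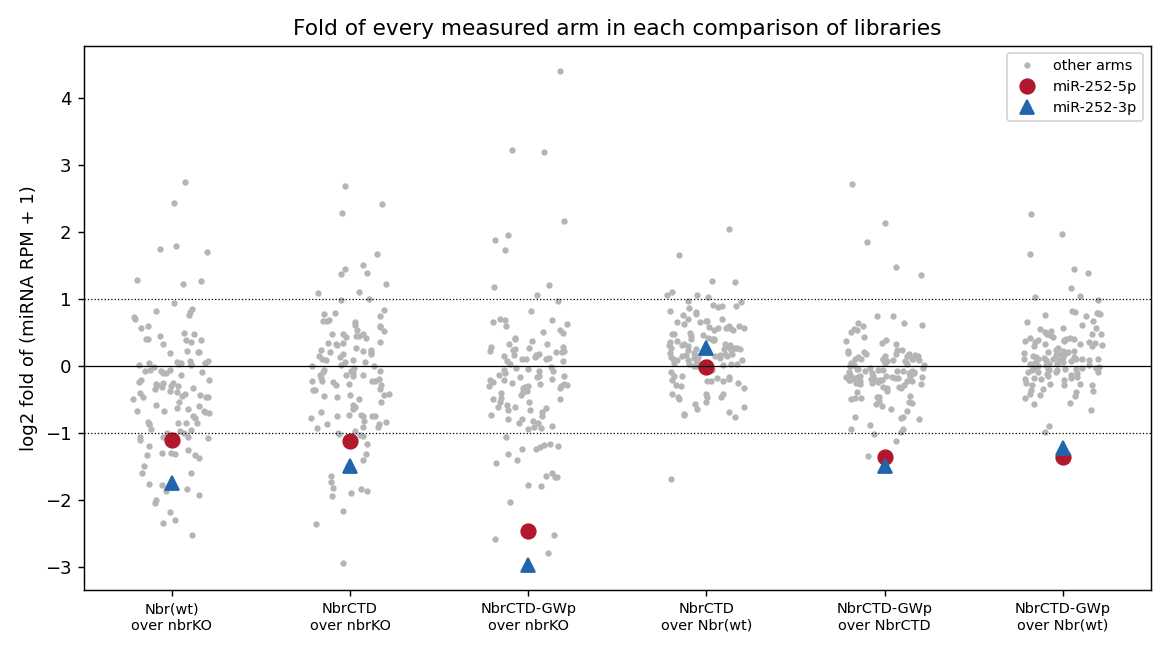
Log2 fold of (miRNA RPM + 1) for the listed 5′ end of 125 arms in 6 comparisons of libraries, each a grey point, with miR-252-5p as a red circle and miR-252-3p as a blue triangle, and dotted lines at 2-fold. The mir-252 arms lie lowest where NbrCTD-GWp is set against NbrCTD or Nbr(wt), and near 0 where NbrCTD is set against Nbr(wt).

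The 5′ end of miR-252-5p was sharply set in all libraries. Its listed end held 95.3% of the arm's reads (95.1 to 95.5) in Nbr(wt), 95.0% (94.7 to 95.2) in NbrCTD, 95.0% (94.6 to 95.3) in NbrCTD-GWp and 95.6% (95.4 to 95.7) in nbrKO. The differences from nbrKO were under the 5 percentage points taken as a change, although the intervals of NbrCTD and NbrCTD-GWp were apart from that of nbrKO. The median over the 116 arms that reached 100 reads in all libraries lay at 96.5% to 96.7%. The seed of the guide was therefore that of cTAAGTA in nearly all of its reads in each library.

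The 5′ end of miR-252-3p was loosely set, and more so with each construct. The shorter end, cCTGCTG, held 46.5% of the arm's reads (43.6 to 49.5) in Nbr(wt), 48.4% (45.2 to 51.6) in NbrCTD and 60.4% (58.2 to 62.6) in nbrKO. In NbrCTD-GWp the longer end, tCCTGCT, was listed with 46.7% (41.7 to 51.8). The table lists 1 end for each arm and library and gives more only where their shares are equal, as it did for 10 to 13 arm names in each library, so an end that is not listed had no more reads than the listed one. The shorter end therefore held at most 46.7% in NbrCTD-GWp, and the longer one at most 46.5% in Nbr(wt), 48.4% in NbrCTD and 39.6% in nbrKO. Against nbrKO the shorter end differed by -13.9 percentage points with Nbr(wt), by -12.0 for NbrCTD and by -13.7 or more in size with NbrCTD-GWp. For the shorter end these intervals are apart from that of nbrKO with each construct. For the longer end, the bound of 39.6% in nbrKO has an interval of 37.4 to 41.8, which overlaps that of NbrCTD-GWp between 41.7 and 41.8. Whether the longer end differs between NbrCTD-GWp and the other constructs could not be read from the table, since 46.7% lies near or below those bounds.

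**Figure D3:**
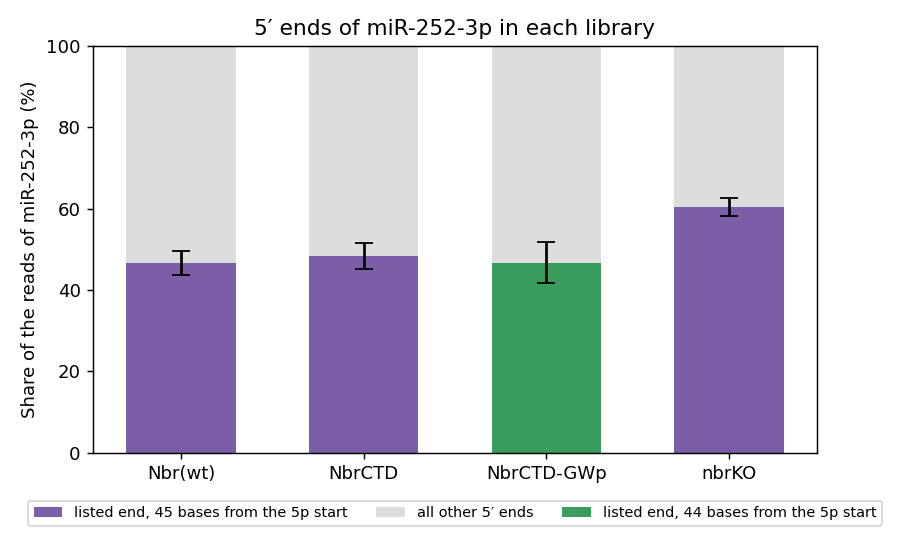
Share of the reads of miR-252-3p (%) held by the listed 5′ end, purple where it starts 45 bases from the 5p start and green where it starts 44 bases from it, with all other ends in grey and bars for exact Clopper-Pearson 95% intervals. The listed end holds 60.4% in nbrKO and 46.5% to 48.4% in the 3 construct libraries.

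In level, the shorter 3p end and the rest of the arm were both lower than in nbrKO. The shorter end stood at 25.7 miRNA RPM in Nbr(wt) and 31.1 in NbrCTD, against 89.0 in nbrKO. All other 5′ ends together stood at 29.6 in Nbr(wt) and 33.2 in NbrCTD, against 58.3 in nbrKO. Their log2 differences were -1.75 and -1.49 for the shorter end and -0.96 and -0.79 for the others, with Nbr(wt) first. In NbrCTD-GWp the longer end had 10.5 miRNA RPM and all other ends 11.9.

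Few arms changed their listed end. With at least 100 arm reads in both libraries, the listed end differed from that of nbrKO in 0.813% of arms with NbrCTD-GWp, which is miR-252-3p alone, in 0.84% with NbrCTD and in 0% with Nbr(wt), where a minimum of 30 reads gives 1 arm. Of 118 arms with that many reads in all libraries, 2 had unlike listed ends, miR-252-3p and miR-2a-2-3p, which is named after its values were seen. A fall of at least 5 percentage points at an unmoved listed end with intervals apart, as for miR-252-3p with Nbr(wt) and NbrCTD, was found in 4.8% and 3.39% of arms, and a rise in 5.6% and 3.39%. In each construct library no arm of the 116 had a lower listed share than miR-252-3p, and in nbrKO 3 had.

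The tailed share was read from the authors' columns headed GM and PM, taken as reads that match the genome throughout and reads whose 3′ end carries an untemplated tail. The headers do not spell this out. For miR-252-5p it was 1.42% (1.30 to 1.54) in Nbr(wt), 1.60% (1.46 to 1.75) in NbrCTD, 1.41% (1.22 to 1.62) in NbrCTD-GWp and 1.48% (1.39 to 1.59) in nbrKO, on 579, 475, 197 and 847 tailed reads. All 4 intervals overlapped, so no difference was detectable at this depth. Tails were lower than in nbrKO, with intervals apart, in 44.7% of arms for Nbr(wt), in 31.4% for NbrCTD and in 41.8% for NbrCTD-GWp. These are 55 of 123, 37 of 118 and 51 of 122 arms. By the same rule tails were higher in 7, 23 and 8 arms in that order. The median over 116 arms was 2.04%, 2.73% and 2.18% with these constructs, against 3.00% in nbrKO, so miR-252-5p lay below the median in every library.

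miR-252-3p had 1 tailed read in Nbr(wt), 8 in NbrCTD, 1 in NbrCTD-GWp and 16 in nbrKO. Its tailed share was 0.193% (0.00488 to 1.07), 1.74% (0.754 to 3.40), 0.538% (0.0136 to 2.96) and 1.37% (0.786 to 2.22) in that order. These intervals overlapped as well, and so few reads limit what could be seen.

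**Figure D4:**
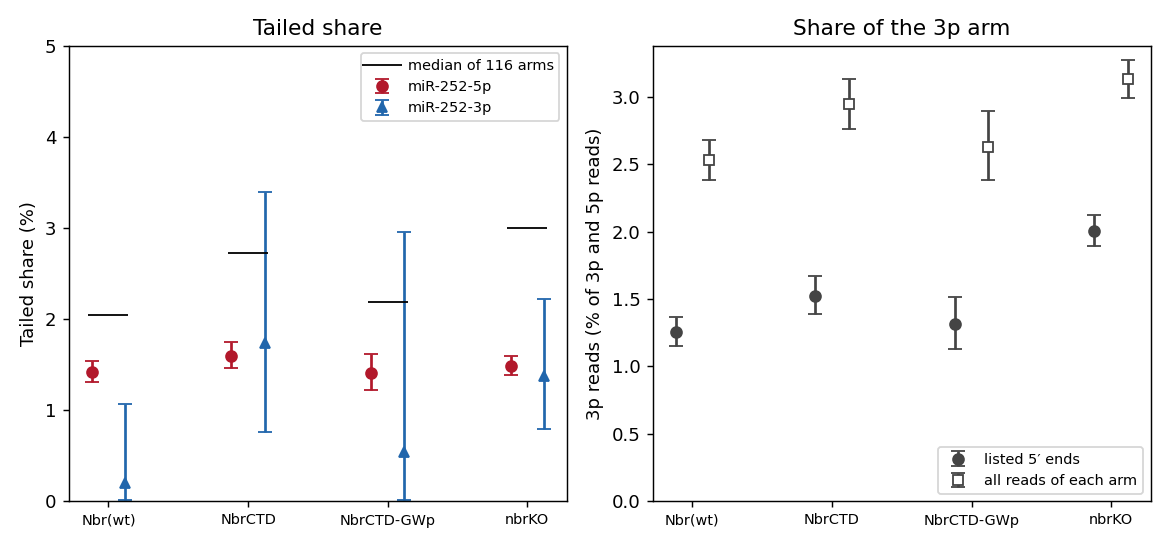
Tailed share (%, left) of both mir-252 arms with the median of 116 arms as a black line, and the share of 3p reads among 3p and 5p reads (%, right) for the listed ends and for all reads, with exact Clopper-Pearson 95% intervals. miR-252-5p stays at 1.41% to 1.60% tailed in the 4 libraries, and the 3p share of all reads at 2.53% to 3.13%.

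The balance of the arms moved little, and how much depends on which reads are counted. The listed 3p end in NbrCTD-GWp is another one than in nbrKO, and the listed share of the 3p arm was lower with each construct. Both enter the balance of the listed ends. By the listed ends, the 3p arm made up 1.25% (1.15 to 1.37) of both arms in Nbr(wt), 1.52% (1.39 to 1.67) in NbrCTD, 1.31% (1.13 to 1.51) in NbrCTD-GWp and 2.00% (1.89 to 2.12) in nbrKO, lower with each construct with intervals apart. By this rule the share of the lesser arm was lower in 49.3% of precursors for Nbr(wt), in 41.2% for NbrCTD and in 36.2% for NbrCTD-GWp. These are 34 of 69, 28 of 68 and 25 of 69 precursors, and the share was higher in 6, 17 and 12. By all reads, the 3p arm made up 2.53% (2.39 to 2.68), 2.95% (2.76 to 3.14), 2.63% (2.38 to 2.90) and 3.13% (3.00 to 3.27) in the same order. It was then lower with Nbr(wt) and NbrCTD-GWp, by -0.60 and -0.50 percentage points, and overlapped for NbrCTD. With all reads of each arm, the lesser arm was lower in 47.9%, 40% and 34.7% of precursors, in the same order of constructs. It was higher in 6, 17 and 12 precursors.

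The arms whose profile over the 4 libraries lay nearest to that of miR-252-5p were taken by Euclidean distance between log2(miRNA RPM + 1) values centred on their mean. The nearest of the 124 others was miR-252-3p itself, at a distance of 0.48, which shares the hairpin. Next came miR-986-3p (0.57), miR-983-5p (0.79), miR-5-3p (0.95) and miR-968-3p (1.03). They are much rarer, at 18.8, 18.2, 13.7 and 17.8 miRNA RPM in nbrKO, so their profiles carry more counting error. miR-986-3p stood at 5.55 in Nbr(wt), 4.60 in NbrCTD and 2.31 in NbrCTD-GWp, and thus was lowest in NbrCTD-GWp too, on 41 reads there. miR-983-5p, miR-5-3p and miR-968-3p were also lowest in NbrCTD-GWp, at 6.08, 4.90 and 6.93. Such a shared order is what the distance selects for.

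In mir-278, mir-281 and mir-995, taken for comparison, the levels compared with mir-252 as follows. The guide miR-278-3p, from a gene linked to growth and insulin response, had 306 miRNA RPM in Nbr(wt), 218 in NbrCTD, 194 in NbrCTD-GWp and 1121 in nbrKO. It was thus highest in nbrKO, as miR-252-5p was, and it was the arm ranked 6 by the distance above, at 1.03. NbrCTD-GWp was lowest, but near NbrCTD, with log2 differences from nbrKO of -2.53 and -2.36. The authors' RPM moves NbrCTD-GWp against NbrCTD by 0.22, more than that gap, so which is lower depends on the scaling. In its other arm miR-278-5p, named after its values were seen, NbrCTD was lowest, at 5.35 miRNA RPM against 6.03 in NbrCTD-GWp. miR-281-2-5p, from 1 of the 2 mir-281 genes, had 100.3 in Nbr(wt), 118 in NbrCTD, 131 in NbrCTD-GWp and 456 in nbrKO. Nbr(wt) was thus lowest in miRNA RPM, at a log2 difference from nbrKO of -2.17 against -1.94 with NbrCTD. Trimmed means move NbrCTD against Nbr(wt) by -0.30, more than that gap, so this order depends on the scaling too. miR-995-3p had 4056, 7497, 4973 and 4374 and was not lower with NbrCTD or NbrCTD-GWp. In the passenger strand miR-995-5p, added after its values were seen, the listed 5′ end held 82.8% in Nbr(wt), 77.8% in NbrCTD and 82.3% in NbrCTD-GWp, against 69.8% in nbrKO, a difference opposite in sign to that of miR-252-3p.

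The reported Nbr substrates are a list recalled from background knowledge, without mir-252. Of the 10 listed, 7 had enough reads, none was at least 2-fold lower than nbrKO with any of the 3 constructs, and miR-7-5p alone was higher, with Nbr(wt) and NbrCTD-GWp. Over all 125 arms, 26.4%, 16% and 17.6% were lower for Nbr(wt), NbrCTD and NbrCTD-GWp, and 6.4%, 8.8% and 8% higher. The median log2 difference of the 7 substrates from nbrKO was -0.57, -0.46 and -0.17 in the same order. Over the 125 arms it was -0.38, -0.14 and -0.21. In tailed share 5 of 7 substrates were lower for Nbr(wt), 4 of 6 for NbrCTD and, for NbrCTD-GWp, 5 of 7 with 1 higher. Over all arms tails were lower in 44.7%, 31.4% and 41.8% in the same order. With 6 or 7 substrates measured, no difference between substrates and other arms was tested. The most abundant, miR-11-3p, had a level of 18900.4 miRNA RPM in Nbr(wt), 20500.1 in NbrCTD and 21775.9 in NbrCTD-GWp, against 28138.4 in nbrKO, with tailed shares of 2.17%, 3.85%, 2.37% and 4.02%.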

How the data were processed

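Small RNAs of 18 to 30 nt from 4 libraries, 1 per group, were analysed from the authors' deposited table. Per the labels' protocols, 25 µg of total RNA were used, 2S rRNA was depleted and both adapters carried 4 random bases. Tools named in the submitters' processing notes are cutadapt 1.2.1 and HTSeq 0.9.1, with the aligner, build and counting rule not given in the sources used here. The authors deposited GM and PM values in RPM, by their size, and, per the file headers, a fraction for the listed 5′ isoform, which by its values is its part of all reads of the arm. The 4 columns of row types were not used.

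The commonest value of each library was taken as 1 read. This gave whole reads (within 0.01) for 94.3% to 95.4% of GM and 91.7% to 95.2% of PM values, and for every mir-252 value. Listed reads divided by the fraction gave the reads of the arm. Loci with 1 name and 1 listed end were summed, 1 arm with values identical to another's was dropped, and 283 arms remained. Pandas 2.3.3 and SciPy 1.17.1 were used with a pseudocount of 1, exact Poisson intervals for levels and exact Clopper-Pearson intervals for shares. With 1 library per group there is no test. The planned share of several listed isoforms could not be had, since the table lists 1 for each arm, and the deposited fraction took its place. Bases 2 to 8 were planned for the seed, and bases 2 to 7 were used. The rule for named miRNAs took all mir-252 rows, the 5 nearest profiles, arms with the same seed letters, the guides of mir-278, mir-281 and mir-995, and up to 3 reported substrates. The calling rules were run on simulated counts that held counting error alone, with large changes planted. That check cannot speak to spread between libraries. The gene, lists and rules were chosen with earlier results of these data known. Alternatives were other scalings, read minimums, pseudocounts, GM reads only and, added after the data were seen, all reads of the arm.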

Additional observations from a re-analysis of the deposited data

How the results depend on the processing

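Both mir-252 arms kept their direction against nbrKO, and NbrCTD-GWp stayed below both other constructs, under every scaling, pseudocount and choice of reads tried. Of 96 alternative values of abundance, 92 kept their side of the 2-fold rule. The sum of listed isoforms is among them and could not differ for mir-252, and the pseudocounts hardly moved miR-252-5p. This count is therefore no measure of how stable the calls are. The log2 difference of miR-252-5p between Nbr(wt) and nbrKO fell short of 2-fold with the authors' RPM (-0.92), median of ratios (-0.77) and trimmed means (-0.74). A pseudocount of 10 put miR-252-3p in NbrCTD-GWp against Nbr(wt) at -0.80, since its level is near that pseudocount. All reads of the arms put the 3p share with NbrCTD against nbrKO at -0.19 percentage points, with overlapping intervals. Against nbrKO, median of ratios moved all log2 differences by 0.33, 0.09 and 0.16 with Nbr(wt), NbrCTD and NbrCTD-GWp. With Nbr(wt) it gave 19 lower and 15 higher arms and trimmed means 16 and 15, against 33 and 8. For NbrCTD against Nbr(wt), trimmed means gave 4 lower and 2 higher arms, and median of ratios and the authors' RPM 4 higher, against 1 and 8. For NbrCTD-GWp against Nbr(wt), median of ratios and trimmed means gave 4 lower arms against 2, with 5 higher by trimmed means and 13 at a minimum of 30 reads against 8. Against NbrCTD, the authors' RPM gave 3 lower arms against 5. A minimum of 30 reads gave 2 arms with another listed end against 1 for NbrCTD and for NbrCTD-GWp, and 1 against 0 for Nbr(wt). A minimum of 300 reads gave 3 arms with a fallen listed share against 6 for Nbr(wt), and 2 against 4 for NbrCTD-GWp against nbrKO and against NbrCTD. The cause was not tested. Isoform shares from GM reads alone were not run, as the fraction covers both kinds of read, and summing listed isoforms changed nothing for mir-252, which has 1 for each arm and library. No paired analysis was possible because each group held 1 library.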
